A study of Mus musculus with 9 samples.

Results

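The genes described here set the pace of the G1 phase, the stretch of the cell cycle in which a cell either commits to copying its DNA or stays at rest. They are the D-type cyclins Ccnd1, Ccnd2 and Ccnd3, the kinases Cdk4 and Cdk6 that these cyclins switch on, the CDK inhibitors Cdkn1a (p21), Cdkn1b (p27) and Cdkn2c (p18), and the pocket proteins Rb1 (RB) and Rbl2 (p130). They were taken by gene symbol from a table of 17305 mouse genes. All 10 were found there and all 10 were among the 13059 genes with enough reads to be tested.

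A D-type cyclin bound to its kinase phosphorylates the pocket proteins and so releases the E2F factors that drive genes of DNA synthesis. p21 and p27 bind and restrain cyclin-CDK complexes, whereas p18 belongs to the INK4 inhibitors, which bind CDK4 and CDK6 themselves. In resting cells p130 sits with E2F4 and the MuvB proteins in the DREAM complex, which holds down cell cycle genes. Hepatocytes of the adult liver rest outside the cycle and re-enter it after injury, and cyclin D1 is the D-type cyclin best known for that step.

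RNA from 9 livers of male Balb/c mice was sequenced, with 1 library per liver. The labels give an age of 8 weeks, which the published methods give as the age of the mice when bought, before treatment. All mice received carbon tetrachloride (CCl4), a liver poison that causes fibrosis when given repeatedly, for 8 weeks, and all received an AAV8 virus through the tail vein, per the labels 4 weeks after the first CCl4 dose. The virus carried either a control sequence (NC + CCl4, n = 3) or 1 of 2 short hairpin RNAs against the long noncoding RNA lnc-Helf, called lncHELF in the labels (lnc-Helf-sh1# + CCl4, n = 3, and lnc-Helf-sh2# + CCl4, n = 3). The published methods give another time for the virus than the labels do, livers without CCl4 were not analysed here, and the sources used here do not give the cells in which the hairpins acted. Whole liver was used, so fewer cells of a type and less RNA per cell cannot be told apart in any value below.

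The libraries held 14265875 to 16816431 expected counts, the read numbers that RSEM assigns to each gene. The members were covered by between 95 reads (Rb1, lowest library) and 2602.43 reads (Ccnd1, highest library). The expected counts of Ccnd1 and Ccnd3 were not whole in 9 of 9 libraries, so part of their reads was divided with other genes or copies, and their values carry that uncertainty. The table has 1 value per gene and none for lnc-Helf on its own. Its host gene Fmo2, a flavin monooxygenase, was at 202 to 265 CPM in NC, 104 to 122 CPM in lnc-Helf-sh1# and 88.2 to 174 CPM in lnc-Helf-sh2# livers. NC overlapped with neither hairpin group, where 12.9% and 16.1% of all genes were lower without overlap. Fmo2 passed the edgeR test in neither comparison (adjusted p = 0.144 and 0.0528). With both hairpin groups averaged against NC it passed, at a log2 fold change of -0.92 (SE 0.18, adjusted p = 0.035, edgeR). CPM here are counts scaled by each library's total and its TMM factor, which sets the bulk of genes equal between libraries. Without it the median of all genes was shifted by -0.11 on the log2 scale for lnc-Helf-sh1# and by -0.15 for lnc-Helf-sh2# against NC, and on the TPM scale (per transcript length, pseudocount 1) by -0.10 and -0.18, so small differences read against these shifts. Both hairpin comparisons use the same 3 NC libraries.

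Levels between genes were compared as TPM in the NC group. Cdk4 was the most abundant member, at 67.4 ± 1.04 TPM (SD, n = 3), followed by Ccnd3 at 37.4 ± 2.31 and Cdkn1a at 34.8 ± 10.7 TPM, whose ranges overlapped. Cdkn2c (17.7 ± 2.05 TPM), Ccnd1 (17.2 ± 3.05), Rbl2 (17.01 ± 1.78) and Cdkn1b (15.2 ± 2.34) formed a middle block in which each gene overlapped the next. Cdk6 (5.37 ± 1.02 TPM), Rb1 (4.26 ± 0.34) and Ccnd2 (2.80 ± 0.513) were lowest, in that order and without overlap between neighbours. Within the families, Cdk4 made up 91.1 to 94.0% of the TPM of both kinases in every library. Rbl2 made up 75.1 to 82.9% of the TPM of both pocket proteins, and Ccnd2 only 2.37 to 5.94% of the D-type cyclins.

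**Figure D1:**
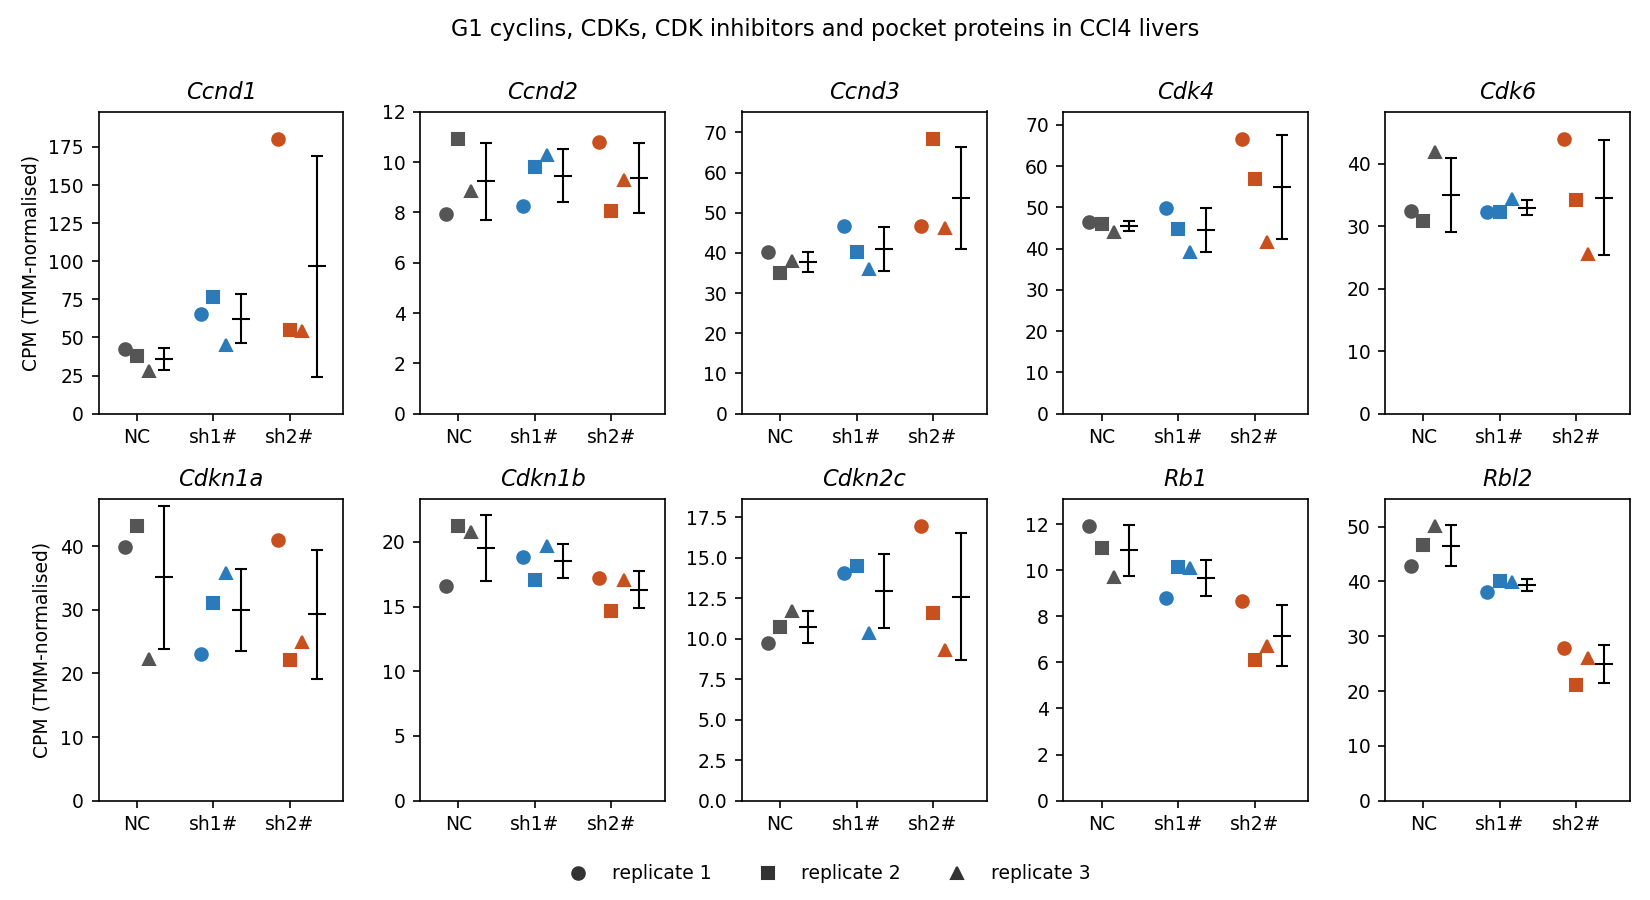
CPM of each member (vertical axes, each starting at 0) in NC, lnc-Helf-sh1# (sh1#) and lnc-Helf-sh2# (sh2#) livers, with a symbol for each library and the mean ± SD of 3 libraries in black beside it. Rbl2 lies at 42.7 to 50.1 CPM in NC and at 21.0 to 27.8 CPM in lnc-Helf-sh2# livers, and 1 lnc-Helf-sh2# library holds the Ccnd1 value of 180 CPM.

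The first question was whether a virus against lnc-Helf altered these genes in CCl4 livers. Of the 10 members, Rbl2 alone passed the test (edgeR quasi-likelihood, Benjamini-Hochberg adjusted p under 0.05 over all 13059 genes), and it was lower in lnc-Helf-sh2# than in NC livers. In lnc-Helf-sh1# against NC no gene of the whole table passed in either direction (0% higher, 0% lower), the lowest adjusted p being 0.0783, and no member had an unadjusted p under 0.05, against 7.94% of all genes higher and 9.95% lower. By DESeq2, which called 2.88% of genes there, no member passed either. In this comparison 4 members had positive and 6 negative log2 fold changes, with a median of -0.05 beside 0.02 over all genes. In CPM, Ccnd1 was the member higher in every lnc-Helf-sh1# library than in every NC library, and Rbl2 the member lower in every one, against 15.6% and 12.9% of all genes. In TPM, Cdk4 and Rb1 were lower without overlap as well. The share over all genes was not computed on that scale for any comparison. The median of all genes was itself shifted there, by -0.10 with lnc-Helf-sh1# (pseudocount 1).

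In lnc-Helf-sh2# against NC, 4.71% of genes were called higher and 3.89% lower, and of the members 0 higher and 1 lower. At an unadjusted p under 0.05 the members counted 2 higher (Ccnd1, Ccnd3) and 2 lower (Rb1, Rbl2), against 16.3% and 14.9% of all genes. In CPM the same 4 genes did not overlap between the groups, against 16.8% of all genes higher without overlap and 16.1% lower. These shares lie close to the background in number. DESeq2 called 4 members, the same ones, where it called 16.2% of all genes. The median log2 fold change of the members was 0.0011 beside 0.0046 over all genes, with 5 members on each side of 0.

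**Figure D2:**
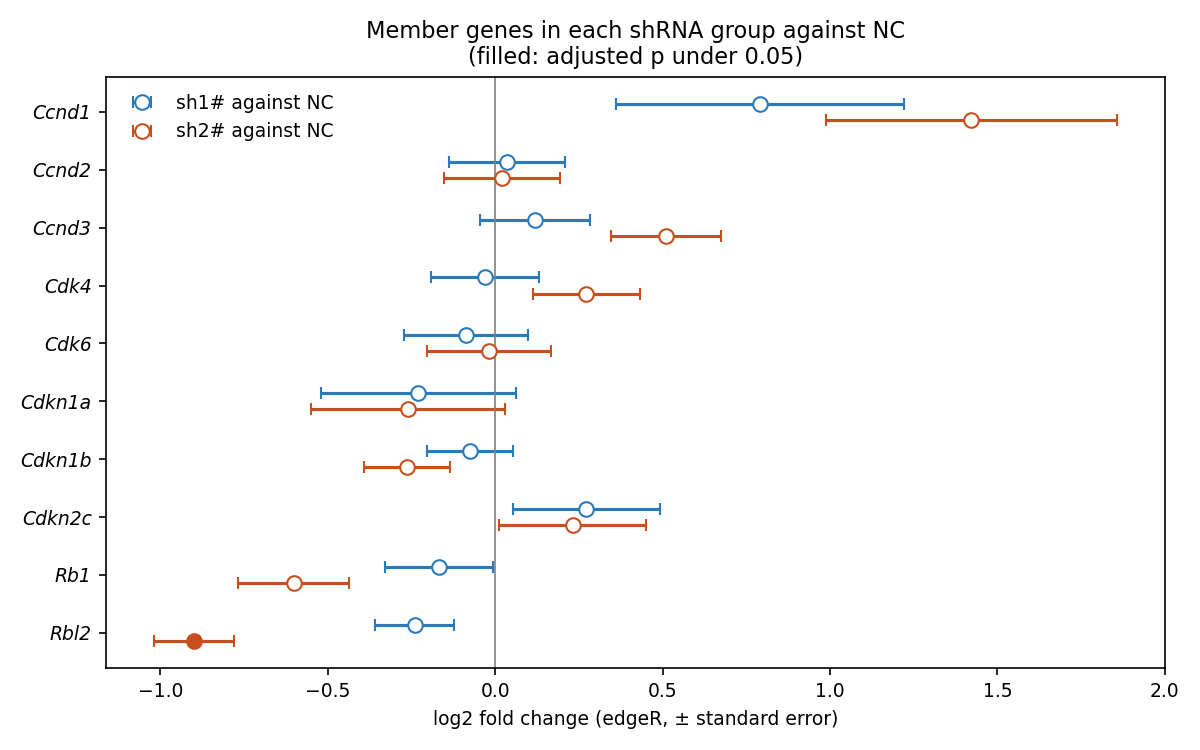
Log2 fold change of each member against NC (TMM-scaled edgeR fit, bars ± SE, filled where the adjusted p is under 0.05) for lnc-Helf-sh1# and lnc-Helf-sh2# livers, 3 libraries a group. Rbl2 is at -0.24 with lnc-Helf-sh1# and at -0.90 with lnc-Helf-sh2#, and Ccnd1 is at 0.79 and 1.42 with the widest bars.

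Among the pocket proteins, Rbl2 stood at 42.7, 46.7 and 50.1 CPM in the NC libraries, at 38.1, 40.1 and 40.0 CPM with lnc-Helf-sh1#, and at 27.8, 21.0 and 26.1 CPM with lnc-Helf-sh2#. The 3 groups were separated throughout, with every lnc-Helf-sh2# liver below every lnc-Helf-sh1# liver and these below every NC liver. Rbl2 fell by 0.90 on the log2 scale (SE 0.12, adjusted p = 0.0201, edgeR) in lnc-Helf-sh2# livers, to 0.536 of its NC level, and ranked number 11 of 13059 genes by p. With lnc-Helf-sh1# the log2 fold change was -0.24 (SE 0.12, adjusted p = 0.309). On the deposited TPM scale, without TMM scaling, the Rbl2 groups were separated in the same way, with 15.2 to 18.7 TPM in NC, 12.3 to 13.6 with lnc-Helf-sh1# and 6.61 to 9.27 with lnc-Helf-sh2#.

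The direction of Rbl2 held in every alternative, between -1.12 and -0.80, with adjusted p values between 5.95e-07 (DESeq2) and 0.0972. Of the fits with a library left out, the call was lost without NC replicate 1 (adjusted p = 0.0666), without NC replicate 3 (0.0972) and without lnc-Helf-sh2# replicate 2 (0.0585), all by edgeR. The reported fall was under a 2-fold change, so no member passed where a fold above 2 was asked for as well. Without lnc-Helf-sh2# replicate 1, the liver that stood apart for Ccnd1, the log2 fold change of Rbl2 was -1.003 and the call held.

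Rb1, which encodes RB itself, was less abundant and moved over a smaller range. Its values were 11.9, 10.98 and 9.71 CPM in NC, 8.78, 10.1 and 10.1 CPM with lnc-Helf-sh1#, and 8.66, 6.11 and 6.72 CPM with lnc-Helf-sh2#. In CPM the lnc-Helf-sh2# livers lay below all others, while NC and lnc-Helf-sh1# overlapped. In TPM both hairpin groups lay below NC (3.87 to 4.51) and overlapped each other. They were at 3.02 to 3.82 TPM with lnc-Helf-sh1# and at 2.03 to 3.08 TPM with lnc-Helf-sh2#. The log2 fold change with lnc-Helf-sh2# was -0.60 (SE 0.16, adjusted p = 0.0508, edgeR), just outside the threshold, and it passed by DESeq2 (adjusted p = 0.024) and in 6 other alternatives. With lnc-Helf-sh1# it was -0.17 (adjusted p = 0.603). Summed TPM of both pocket proteins were 19.7 to 22.6 in NC, 15.3 to 17.5 with lnc-Helf-sh1# and 8.64 to 12.4 with lnc-Helf-sh2#.

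The start of Rbl2 is shown because it is the called member. The RefSeq window (GRCm38.p6, chr8:91069807-91070106, plus strand) runs from 250 bases before to 50 bases after the start, and 50.7% of its bases are G or C. Capitals mark the matches, 1 cell cycle homology region (CHR, TTTGAA, read on the other strand as TTCAAA, first base at -201), the kind of element that the MuvB proteins bind, and 1 GC box (GGGCGG, at +10), the motif of Sp1.
Rbl2: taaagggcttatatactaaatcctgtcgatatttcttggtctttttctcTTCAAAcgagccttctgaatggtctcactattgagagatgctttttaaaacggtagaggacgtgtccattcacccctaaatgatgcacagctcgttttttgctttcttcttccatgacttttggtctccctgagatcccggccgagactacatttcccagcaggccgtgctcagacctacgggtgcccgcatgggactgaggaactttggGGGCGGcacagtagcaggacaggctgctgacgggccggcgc
Both strands were searched, and a CHR was found in 17.9% and a GC box in 35.7% of the 32851 mouse promoter windows of the same length, so both are common. A match is a description of letters and not a bound site.

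Among the D-type cyclins the spread sat in single livers. Ccnd1, the cyclin best known for hepatocyte entry into the cycle, was at 42.3, 37.8 and 28.1 CPM in NC, at 65.3, 76.8 and 45.0 CPM with lnc-Helf-sh1#, and at 180, 55.2 and 54.6 CPM with lnc-Helf-sh2#. Every hairpin liver was above every NC liver, and lnc-Helf-sh2# replicate 1 stood far above the rest. The log2 fold change was 1.42 (SE 0.43, adjusted p = 0.0657, edgeR) with lnc-Helf-sh2# and 0.79 (SE 0.43, adjusted p = 0.358) with lnc-Helf-sh1#, neither past the threshold. Without lnc-Helf-sh2# replicate 1 the value of Ccnd1 was 0.59 (SE 0.22, adjusted p = 0.102). By DESeq2 Ccnd1 was called higher with lnc-Helf-sh2# (adjusted p = 0.00721).

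Ccnd3 carried most cyclin D message in NC livers and read 40.2, 35.1 and 37.9 CPM there. It read 46.7, 40.2 and 35.9 CPM with lnc-Helf-sh1# and 46.8, 68.4 and 46.1 CPM with lnc-Helf-sh2#. The lnc-Helf-sh2# livers lay above NC in CPM, replicate 2 by the widest margin, but the groups overlapped in TPM. Its log2 fold change was 0.51 (SE 0.16, adjusted p = 0.0738, edgeR) and, without lnc-Helf-sh2# replicate 2, 0.29 (adjusted p = 0.215). DESeq2 gave an adjusted p of 0.043. Ccnd2 was at 7.93 to 10.9 CPM in NC, 8.28 to 10.3 with lnc-Helf-sh1# and 8.04 to 10.8 with lnc-Helf-sh2#, ranges that covered each other, and its log2 fold changes were 0.03 and 0.02 (SE 0.17 each), with a sign that turned under other scalings.

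The balance between the cyclins followed the same livers. Ccnd3 made up 64.1, 61.8 and 69.8% of cyclin D TPM in NC, 57.7, 49.9 and 58.6% with lnc-Helf-sh1#, and 33.8, 71.3 and 60.6% with lnc-Helf-sh2#. Ccnd1 made up 32.1, 32.2 and 25.2%, then 39.1, 46.4 and 36.2%, then 63.8, 26.3 and 35.6%. The Ccnd1 share was thus higher in every lnc-Helf-sh1# liver than in every NC liver, whereas the lnc-Helf-sh2# livers spread across the whole range, with Ccnd1 the leading cyclin in replicate 1 alone.

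**Figure D3:**
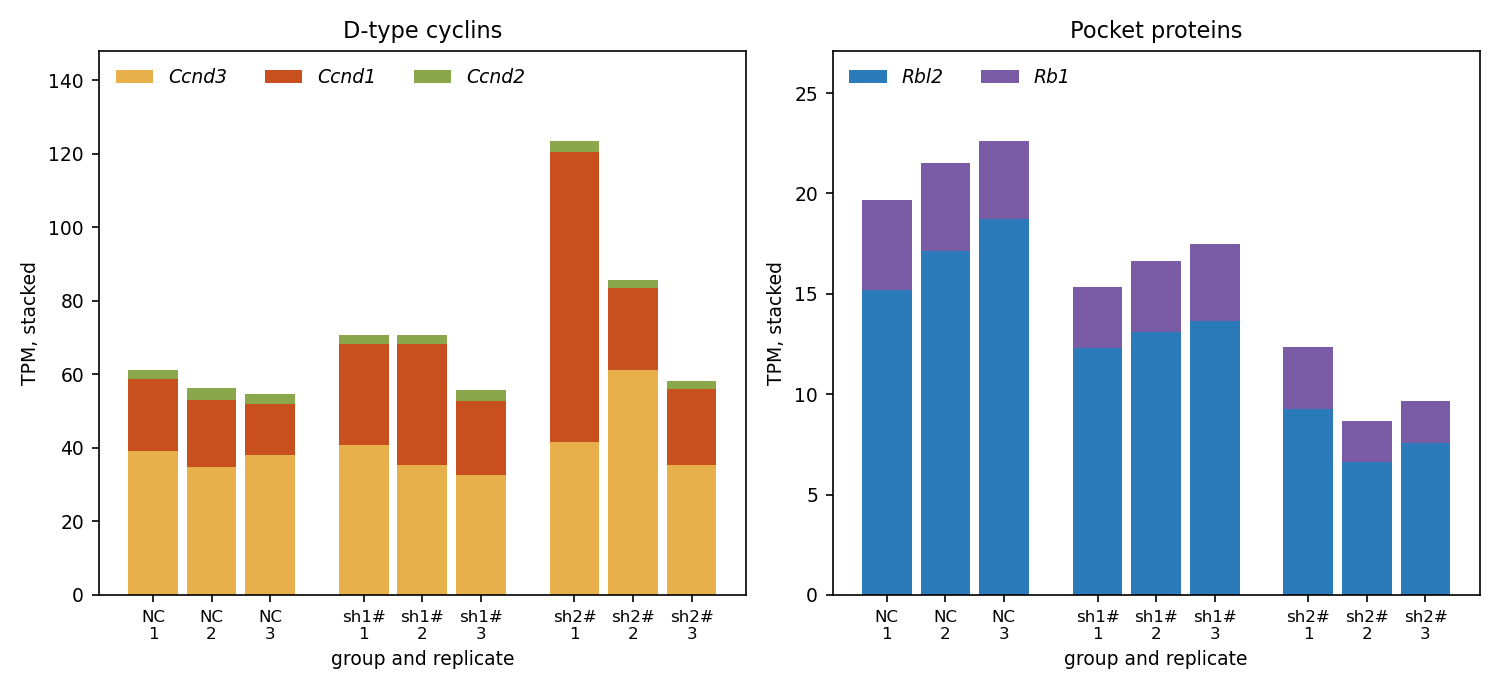
Summed TPM of D-type cyclins and of pocket proteins in each of the 9 libraries, each bar divided by gene and starting at 0. Pocket protein sums are 19.7 to 22.6 in NC and 8.64 to 12.4 in lnc-Helf-sh2# livers, and cyclin D sums reach 123 in lnc-Helf-sh2# replicate 1.

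The kinases did not pass the test in any comparison. Cdk4 read 46.4, 46.0 and 44.1 CPM in NC (CV 2.80%), 49.7, 44.7 and 39.2 CPM with lnc-Helf-sh1# (CV 11.9%), and 66.6, 56.8 and 41.6 CPM with lnc-Helf-sh2# (CV 22.9%). In CPM both hairpin groups reached above and below NC. On the TPM scale (pseudocount 1) the median of all genes was shifted by -0.10 with lnc-Helf-sh1#. In TPM every lnc-Helf-sh1# liver (53.95 to 64.69) was below every NC liver (66.33 to 68.4). Its log2 fold change with lnc-Helf-sh2# was 0.27 (SE 0.16, adjusted p = 0.272, edgeR), with a sign that turned on the TPM scale, and with lnc-Helf-sh1# it was -0.03 (SE 0.16). Cdk6 read 32.4, 30.9 and 41.8 CPM in NC, 32.2 to 34.3 CPM with lnc-Helf-sh1# and 44.0, 34.3 and 25.5 CPM with lnc-Helf-sh2#, all overlapping, with log2 fold changes of -0.09 and -0.02 (SE 0.19 each).

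No inhibitor passed the test. Cdkn1a, a p53 target, was the most variable of them, at 39.9, 43.2 and 22.3 CPM in NC, 23.1, 31.0 and 35.8 CPM with lnc-Helf-sh1#, and 40.9, 22.1 and 25.0 CPM with lnc-Helf-sh2#. Its CV was 32.0%, 21.4% and 34.6% in these groups, and each group held libraries near the low and the high end. The log2 fold changes of Cdkn1a were -0.23 and -0.26 (SE 0.29 each, adjusted p = 0.7 and 0.564, edgeR). Cdkn1b, which holds resting cells out of the cycle, was at 16.6 to 21.2 CPM in NC, 17.1 to 19.7 CPM with lnc-Helf-sh1# and 14.7 to 17.2 CPM with lnc-Helf-sh2#. Its log2 fold change with lnc-Helf-sh2# was -0.26 (SE 0.13, adjusted p = 0.194, edgeR), and these livers overlapped with NC in CPM but not in TPM. On the TPM scale the median of all genes was shifted by -0.18 (pseudocount 1), and no share over all genes was computed.

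Cdkn2c read 9.75, 10.8 and 11.7 CPM in NC, 14.04, 14.5 and 10.4 CPM with lnc-Helf-sh1#, and 16.97, 11.6 and 9.29 CPM with lnc-Helf-sh2#. Replicate 3 of each hairpin group lay within or below the NC range, and lnc-Helf-sh2# replicate 2 lay within it as well. The log2 fold changes of Cdkn2c were 0.27 and 0.23 (SE 0.22 each, adjusted p = 0.53 and 0.5, edgeR), and without lnc-Helf-sh2# replicate 1 the second was -0.06. In CPM its message was highest in the same 3 livers as the mitosis genes, whereas in TPM NC replicate 3 (20.00) was above lnc-Helf-sh1# replicate 1 (19.19). Summed TPM of 26 mitosis genes were 55.0, 77.5 and 73.0 in NC, 180, 165 and 55.5 with lnc-Helf-sh1#, and 256, 99.7 and 58.9 with lnc-Helf-sh2#. The first start of Cdkn2c is shown for that pattern (RefSeq, GRCm38.p6, chr4:109666707-109667006, minus strand, 73.3% G or C), with 4 GC boxes in capitals (first bases at -95, -51, -40 and +37).
Cdkn2c: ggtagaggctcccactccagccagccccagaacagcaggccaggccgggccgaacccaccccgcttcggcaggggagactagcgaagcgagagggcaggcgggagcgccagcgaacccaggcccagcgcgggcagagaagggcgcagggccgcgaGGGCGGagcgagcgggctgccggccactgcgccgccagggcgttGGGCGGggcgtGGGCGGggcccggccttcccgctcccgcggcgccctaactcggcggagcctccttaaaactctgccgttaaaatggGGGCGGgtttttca
RefSeq gave 10 windows for 7 members (Ccnd3, Cdk4, Cdk6, Cdkn1a, Cdkn1b, Cdkn2c, Rbl2), with none for Ccnd1, Ccnd2 and Rb1. The E2F motifs TTTCCCGC and TTTGGCGC, which 1.07% and 0.514% of all windows hold, and the cAMP response element TGACGTCA (1.79%) were in 0 of the 10 windows, and E2F letters can share bases with a GC box. CCAAT (37.4% of all windows) was found 3 times for Cdkn1b and once each in a Ccnd3 and a Cdkn2c window, and a FoxO motif GTAAACA (3.65%) once, in a Ccnd3 window. GC boxes (35.7% of all windows) were not particular to Cdkn2c, being found for Ccnd3, Cdk4, Cdkn1a, Cdkn1b and Rbl2 too. The Cdk6 window, the first Cdkn1a window and the second Cdkn2c window held none. No match says only that these letters are not in the window.

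**Figure D4:**
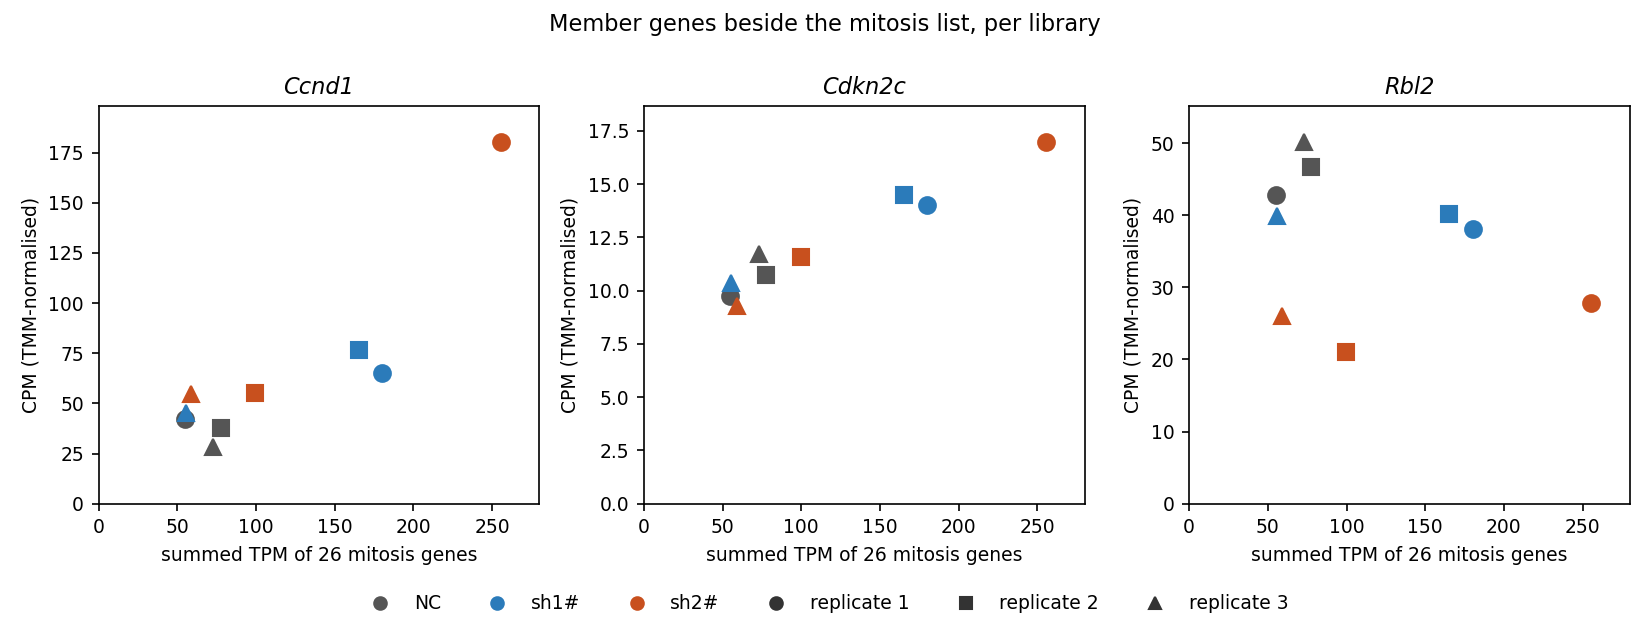
CPM of Ccnd1, Cdkn2c and Rbl2 against the summed TPM of 26 mitosis genes in the 9 libraries, with colours for the groups and shapes for the replicates. The Cdkn2c values of 14.04, 14.5 and 16.97 CPM belong to the 3 libraries with the highest mitosis sums, whereas Rbl2 in lnc-Helf-sh2# livers is 21.0 to 27.8 CPM at mitosis sums from 58.9 to 256.

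The hairpin groups were compared with each other next, to see where 2 sequences against the same RNA differed. No gene of the table passed (0% higher, 0% lower, lowest adjusted p = 0.308, edgeR), so no member did. At an unadjusted p under 0.05, Ccnd3 was higher and Rb1 and Rbl2 were lower in lnc-Helf-sh2# than in lnc-Helf-sh1#, against 5.19% and 5.26% of all genes. Without overlap 0 members were higher and 2 lower (Rb1, Rbl2), against 7.02% and 7.14%. DESeq2 called 0.914% of the 6890 genes that it kept for this comparison, Rbl2 among them (adjusted p = 0.00659). It gave Ccnd2 no adjusted p there. The difference of Rbl2 was -0.66 (SE 0.12, adjusted p = 0.377, edgeR), that of Rb1 -0.43 (SE 0.17, adjusted p = 0.46), and the Rb1 groups overlapped in TPM. Ccnd3 differed by 0.39 (SE 0.16) and Ccnd1 by 0.63 (SE 0.43), the latter by -0.19 without lnc-Helf-sh2# replicate 1. The median over the members was -0.02 beside 0.0027 over all genes, with 4 members positive and 6 negative.

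With both hairpin groups averaged against NC, 2.38% of genes were called higher and 3.51% lower, and of the members again 0 and 1. Rbl2 fell by 0.57 on the log2 scale (SE 0.10, adjusted p = 0.027, edgeR) and was lower in 6 of 6 hairpin livers. This average joins a small and a large difference, and the Rbl2 call was lost, of the fits with a library left out, without NC replicate 1 (adjusted p = 0.102), NC replicate 3 (0.136), lnc-Helf-sh1# replicate 1 (0.0672) or replicate 2 (0.0618), over a range of -0.75 to -0.51. Unadjusted, 1 member was higher (Ccnd1) and 2 lower (Rb1, Rbl2), against 14.5% and 15% of all genes. Without overlap in CPM 1 was higher (Ccnd1) and 1 lower (Rbl2), against 7.76% and 7.15%. In TPM Rb1 was lower without overlap too. On that scale no share over all genes was computed, and their median was shifted by -0.14 (pseudocount 1). DESeq2 called 12.9% of genes and 2 members, Rbl2 and Ccnd1 (adjusted p = 0.0203). Ccnd1 stood at 1.11 (SE 0.39, adjusted p = 0.0989, edgeR), and at 0.68 (adjusted p = 0.0449) without lnc-Helf-sh2# replicate 1. Rb1 stood at -0.39 (SE 0.14, adjusted p = 0.105). The other members lay between -0.24 (Cdkn1a) and 0.32 (Ccnd3), and the median of all 10 was -0.01 beside 0.01 over all genes.

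The genes around the members in the pathway were read from lists. Of 29 other G1/S genes (E2F factors, cyclins E and A, ubiquitin ligase parts), 27 were tested. With lnc-Helf-sh2# 3 rose and 0 fell, against 4.71% and 3.89% of all genes. Cks1b, a small partner of CDKs and of SKP2, rose by 1.48 on the log2 scale (adjusted p = 0.025, edgeR) from 8.56 to 20.2 TPM, Skp2, which marks p27 for destruction, rose by 0.80 (adjusted p = 0.0481), and Tfdp1, the E2F partner DP1, rose by 0.57 (adjusted p = 0.0382). With both hairpins Cks1b was higher (1.197, adjusted p = 0.0358) and Fbxo31, a ligase part known to act on cyclin D1, was lower (-0.49, adjusted p = 0.0376), against 2.38% and 3.51% of all genes. None passed with lnc-Helf-sh1#, where Cks1b stood at 0.92 (adjusted p = 0.178) and Fbxo31 at -0.54 (adjusted p = 0.144). The list's median log2 fold change was 0.28 with lnc-Helf-sh1# and 0.29 with lnc-Helf-sh2#, beside 0.02 and 0.0046 over all genes.

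The MuvB proteins, the kinase Dyrk1a that helps to assemble DREAM, and the factors B-Myb and FoxM1 made a list of 8, all tested, of which 0 passed with either hairpin, with medians of 0.30 and 0.33. Rbbp4, a histone-binding part of MuvB, stood at 0.33 (adjusted p = 0.207, edgeR) with lnc-Helf-sh1#, Lin52 at 0.33 and 0.37 with the 2 hairpins, and Foxm1 at 1.14 (adjusted p = 0.197) with lnc-Helf-sh2#. Of 37 S phase genes, 2 rose with lnc-Helf-sh2#, against 4.71% of all genes. Ung, which removes uracil from DNA, rose by 1.43 (adjusted p = 0.0193, edgeR) and Tyms, thymidylate synthase, by 0.98 (adjusted p = 0.0367). The S phase median was 0.50 with lnc-Helf-sh1# and 1.00 with lnc-Helf-sh2#, 35 and 36 of its genes being positive. With lnc-Helf-sh1#, where none passed, Ung stood at 0.47 and Mcm10, a replication origin factor, at 0.50 (adjusted p = 0.211 and 0.217). With both hairpins Ung alone rose (0.95, adjusted p = 0.026, edgeR), against 2.38% of all genes.

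All 26 mitosis genes had positive log2 fold changes in both hairpin comparisons (medians 1.09 and 1.06), yet 0 passed, 6 and 10 having an unadjusted p under 0.05 by edgeR, against 7.94% and 16.3% of all genes higher. The kinase Aurka stood at 1.11 and 1.23 (adjusted p = 0.191 and 0.0656), the mitotic cyclin Ccnb1 at 1.62 with lnc-Helf-sh1# (adjusted p = 0.194) and the ubiquitin enzyme Ube2c at 1.65 with lnc-Helf-sh2# (adjusted p = 0.0731). Their levels split the hairpin groups, since replicate 3 of each group lay within the NC range. The S phase sums were 267 to 323 TPM in NC, 395, 387 and 235 TPM with lnc-Helf-sh1#, and 665, 350 and 214 TPM with lnc-Helf-sh2#, so that replicate 3 of each hairpin group lay below the NC range and the other replicates above it. With lnc-Helf-sh2#, Rbl2 and Rb1 did not split in this way in CPM, replicate 3 being below the NC range too. With lnc-Helf-sh1#, Rbl2 lay below the NC range in every replicate. Rb1 did so in replicate 1 alone, replicates 2 and 3 lying within that range.

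Cdkn1a is a p53 target, so the other p53 targets were listed as well. Of 23 genes 1 rose and 1 fell with lnc-Helf-sh2#, against 4.71% and 3.89% of all genes. These were Aen, a nuclease of apoptosis, at 0.56 (adjusted p = 0.0388, edgeR) and the stress protein gene Sesn1 at -0.78 (adjusted p = 0.0368). The list median was -0.20. With lnc-Helf-sh1# the median was -0.04 and none passed, Aen standing at 0.45 (adjusted p = 0.176) and Gdf15, a stress cytokine, at -0.64 (adjusted p = 0.229). Of 17 genes of the circadian clock, 16 were tested, and 1 fell with lnc-Helf-sh2#, against 3.89% of all genes. The repressor gene Cry2 fell by 0.57 (adjusted p = 0.0201, edgeR) with lnc-Helf-sh2# and stood at -0.48 (adjusted p = 0.111) with lnc-Helf-sh1#. Nr1d2 stood at -0.55 (adjusted p = 0.0599) with lnc-Helf-sh2# and Bhlhe40 at 0.66 (adjusted p = 0.176) with lnc-Helf-sh1#, and the list medians were -0.06 and -0.09. With both hairpins Aen (0.50, adjusted p = 0.0418, edgeR) and Cry2 (-0.52, adjusted p = 0.026) passed, against 2.38% of all genes higher and 3.51% lower.

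**Figure D5:**
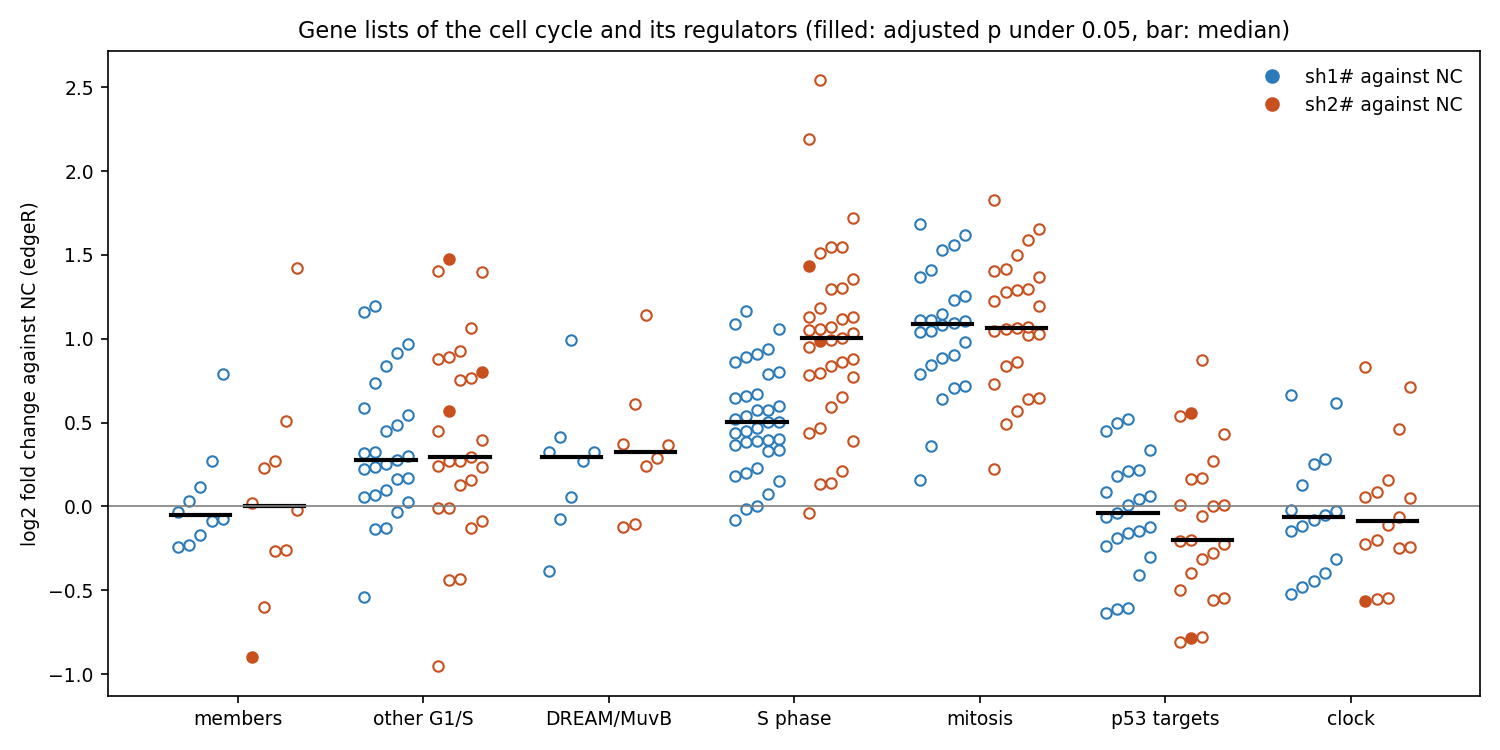
Log2 fold change against NC (TMM-scaled edgeR fit) of every tested gene of the members and the 6 pathway lists, a point per gene (filled where the adjusted p is under 0.05) and a bar for each list's median, in lnc-Helf-sh1# and lnc-Helf-sh2# livers. Mitosis genes have medians of 1.09 and 1.06, whereas the members' medians are -0.05 and 0.0011.

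Genes whose CPM followed a member most closely over the 9 libraries were picked by Pearson r of log2 CPM among 7992 genes with a mean of at least 10 CPM. The r are descriptions, since the 9 libraries share their groups and scaling. For Rbl2 they were Klf9 (r = 0.99), a glucocorticoid-responsive factor, the kinase Dyrk2 (0.98), and N4bp2 (0.98). Rb1 was followed by Fam107b (0.97), Elf2 (0.96) and Tcf20 (0.96). Ccnd1 was followed by Cars (0.97), a transfer RNA synthetase, Nasp (0.96), a histone chaperone of dividing cells, and Zfand3 (0.96). Since 1 library held a Ccnd1 value of 180 CPM, far above the rest, Spearman rho is given too, at 0.88, 0.98 and 0.92 in that order. The nearest to Cdkn2c, chosen after its values were seen, were Mki67 (0.98), the proliferation marker, Smc4 (0.97) and Apom (0.96).

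Markers of other cell types moved with the groups. Summed TPM of 12 monocyte and macrophage markers were 1180 to 1950 in NC, 617 to 1030 with lnc-Helf-sh1# and 544 to 645 with lnc-Helf-sh2#, and 5 of them fell with lnc-Helf-sh2#, against 3.89% of all genes. Lyz2 made up most of these sums (mean 1216, 553 and 410 TPM), while Clec4f stood at 34.6, 34.6 and 27.6 TPM. Log2 fold changes were negative for 11 of the markers with lnc-Helf-sh1# and for 12 with lnc-Helf-sh2#. Sums of 12 stellate cell and myofibroblast markers were 577 to 993, 335 to 494 and 326 to 571 TPM, with 2 called lower with lnc-Helf-sh2#. Neutrophil markers summed to 116 to 212, 83.8 to 165 and 61.1 to 97.2 TPM (1 of 6 tested lower with lnc-Helf-sh2#) and lymphocyte markers to 70.4 to 126, 35.0 to 83.0 and 26.1 to 50.5 TPM (0 of 8 tested). Hepatocyte sums overlapped, at 110000 to 140000, 100000 to 142000 and 101000 to 151000 TPM, with 0 of 12 called, and so did endothelial (130 to 221, 123 to 173, 104 to 147 TPM, 0 of 10), cholangiocyte (384 to 576, 240 to 572, 433 to 1580 TPM, 0 of 6 tested) and erythroid sums (1200 to 1570, 957 to 1430, 880 to 1870 TPM, 0 of 4 tested). Though their sums overlapped, endothelial markers leaned lower. With lnc-Helf-sh1# 1 had a positive and 9 a negative log2 fold change (median -0.16), and with lnc-Helf-sh2# 0 and 10 (median -0.35). The cholangiocyte sum was mostly Spp1 (mean 458, 422 and 796 TPM in NC, lnc-Helf-sh1# and lnc-Helf-sh2#). Krt19 stood at 11.2, 4.80 and 5.29 TPM and Krt7 at 5.42, 2.32 and 3.30 TPM. Of the 6 tested cholangiocyte markers, 2 had positive and 4 negative log2 fold changes with lnc-Helf-sh1#, and 3 and 3 with lnc-Helf-sh2#. Some defining markers were at 0, Sctr in 7 libraries, Hbb-bs in 8 and Cd3g in 1. The part of these shifts in the values of Rbl2, Rb1 and Ccnd1 was not tested.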

How the data were processed

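Whole-liver RNA of 9 mice was sequenced. The authors deposited 1 table with expected counts, TPM and FPKM per gene and library. Per the submitters' processing notes BWA, Bowtie2 and RSEM were used, with no versions, and hg19 is named as build, although the genes are mouse genes. The sources used here name no annotation. The deposited TPM were used for levels between genes, and the deposited FPKM were not used.

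Expected counts (8.15% not whole) were rounded and tested with edgeR 4.0.16 (R 4.3.3): filterByExpr with a minimum count of 10 left 13059 genes, TMM factors were 0.882 to 1.07, and quasi-likelihood tests over all 9 libraries (biological CV 19.9%) were adjusted by Benjamini-Hochberg, with calls under 0.05. Library totals were 14265875 to 16816431, and the rarest member, Rb1, had as few as 95 reads. Between 2 groups of 3 libraries, permuting the labels exactly cannot give a p under 0.05. No permutation p is given for any comparison. P-values measure the spread between these libraries, which the labels call biological replicates. Count differences between libraries exceeded counting noise in every pair within a group, so none was counted as a duplicate. Alternatives were DESeq2 1.42.0, RLE factors, library size only, no filter and a stricter one, the compared groups only, a replicate block, limma 3.58.1 on log2(TPM + 1) and log2(TPM + 0.1), a fold above 2 and leaving out each library. The code was tested on simulated data.

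All 10 members are named, and of each pathway list the genes that passed and the 2 with the smallest p in each hairpin comparison. For likeness, the 3 nearest genes are named for the 3 members with the smallest p over both hairpins. Members and lists were chosen with earlier results of these data known. Levels of some marker genes are not reported here.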

Additional observations from a re-analysis of the deposited data

How the results depend on the processing

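Rbl2 kept its negative direction in every alternative of all 4 comparisons, and every reversed value belonged to a member that passed in no alternative of that comparison. In lnc-Helf-sh1# against NC the count of called genes was 0 by edgeR, 372 by DESeq2, 1 with only the compared groups fitted, and 0 to 3 with a library left out. In lnc-Helf-sh2# against NC, 1123 genes were called, against 2094 by DESeq2, 289 with a fold above 2, 500 with only the compared groups, and 0 to 1658 with a library left out (0 without NC replicate 1, NC replicate 3 or lnc-Helf-sh2# replicate 2). Called members there numbered 1, against 4 by DESeq2, 0 with a fold above 2, 2 each with RLE factors, library size only, the stricter filter and both TPM scales, and 0 to 2 with a library left out. Between the hairpins DESeq2 called 63 genes and 1 member, and leaving out a library gave 0 to 1 genes. With both hairpins 770 genes were called, against 1753 by DESeq2, 217 with a fold above 2, 1214 by library size only and 0 to 1710 with a library left out, and 1 member, against 2 by DESeq2, 0 with a fold above 2 and 0 to 3 with a library left out. The split of called genes with lnc-Helf-sh2# was 615 higher and 508 lower, but 216 and 1139 by library size only, and 144 and 1513 or 137 and 1419 on TPM with pseudocounts of 1 and 0.1. With both hairpins it was 311 and 459, but 108 and 1106, 82 and 1070, and 71 and 888. The cause of these differences between settings was not tested beyond the shift of the median of all genes.

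With a replicate block, 0 genes and 0 members were called with lnc-Helf-sh2# and with both hairpins, Rbl2 standing at -0.90 (adjusted p = 0.0516, edgeR) with lnc-Helf-sh2#. Deviations of same-numbered libraries correlated between -0.423 and 0.259, so the numbers did not pair the livers.

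Reversed values, in the order library size only, TPM + 1 and TPM + 0.1, were these. For Ccnd2 they were -0.094, -0.074 and -0.10 (lnc-Helf-sh1#), -0.13, -0.16 and -0.21 (lnc-Helf-sh2#) and -0.11, -0.12 and -0.15 (both), and with the stricter filter -0.0057 (lnc-Helf-sh2#) and -0.0021 (both). Ccnd3 with lnc-Helf-sh1# was at -0.011, -0.049 and -0.050, and Cdk4 with both at -0.011, -0.094 and -0.10. On the TPM scales alone, Cdk4 (-0.0028 and -0.0035) and Cdkn2c (-0.16 and -0.17) turned with lnc-Helf-sh2#, Cdkn2c with both (-0.048 and -0.052), and Cdk6 between the hairpins (-0.029 and -0.043), where Ccnd2 with RLE factors was 0.0008. With a library left out, log2 fold changes ranged with lnc-Helf-sh1# from -0.062 to 0.18 (Ccnd2), -0.0076 to 0.21 (Ccnd3), -0.14 to 0.057 (Cdk4) and -0.17 to 0.0605 (Cdk6). With lnc-Helf-sh2# they ranged from -0.11 to 0.16 (Ccnd2), -0.25 to 0.14 (Cdk6) and -0.062 to 0.39 (Cdkn2c). Between the hairpins the ranges were -0.19 to 0.92 (Ccnd1), -0.13 to 0.094 (Ccnd2), -0.14 to 0.25 (Cdk6), -0.35 to 0.15 (Cdkn1a) and -0.31 to 0.14 (Cdkn2c), and with both hairpins -0.069 to 0.17 (Ccnd2) and -0.18 to 0.095 (Cdk6). Rb1, with as few as 95 reads a library, and Ccnd2 and Cdkn2c had the fewest reads.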
